A study of Mus musculus with 4 samples.

Results

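The circadian clock genes described here are the activators *Arntl* (the older symbol of *Bmal1*) and *Clock*, the inhibitors *Per1*, *Per2*, *Per3*, *Cry1* and *Cry2*, the nuclear receptors *Nr1d1* and *Nr1d2*, and the output factor *Dbp*. They were taken by gene symbol, and all 10 were found among the 48587 genes of the deposited count table. They were measured by mRNA-seq in primary vascular smooth muscle cells (VSMCs) grown out of the descending aorta of young adult C57BL/6J mice and used after several passages. The cells were transduced with a lentivirus for a hairpin against *Mettl14* (shMettl14), which encodes a subunit of the m6A methyltransferase, or for a control hairpin against a plant microRNA (shCTR), so that the controls too carried a viral hairpin, and were collected after further days in fresh medium. Each group has 2 libraries, named A and B, and the letters are not described further. The comparison asks whether the clock genes differ between the hairpins, within each letter and over both.

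The mammalian clock is a transcriptional loop. The proteins CLOCK and BMAL1 bind together to E-boxes in DNA and activate the *Per*, *Cry*, *Nr1d* and *Dbp* genes. PER and CRY proteins then inhibit CLOCK and BMAL1, and the *Nr1d* products, REV-ERBα and REV-ERBβ, repress *Arntl* through ROR/REV-ERB response elements. DBP activates genes through D-boxes, and *Dbp* is among the most strongly rhythmic transcripts in many tissues. VSMCs have such a clock, and in culture it is known to be reset by serum and by glucocorticoids. No hour of collection is given in the sources used here, so each library is 1 point in time and shows levels, not a rhythm.

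The DNA elements of this loop are shown because the genes below are ordered by it. RefSeq promoters (GRCm38.p6, from 250 bases before to 50 bases after a start site) were matched by symbol for 9 of the 10 genes, all but *Per2*. An E-box (CACGTG) was found in a promoter of *Per1* and of *Cry1*, and in 7.15% of all 32851 promoters. The variant CACGTT was found in promoters of *Cry1*, *Cry2* and *Nr1d1* and in 4.68% of all promoters. The *Per3* promoter held 2 copies of the D-box TTATGTAA, which 0.938% of all promoters held, and an *Arntl* promoter held a ROR/REV-ERB response element, found in 0.384%. A gene could have more than 1 promoter, and counted by gene these shares were 8.09%, 5.44%, 1.11% and 0.459%. The promoters searched for *Clock*, *Nr1d2* and *Dbp* held none of these motifs. Both strands were searched, and neither the E-box and its variant nor the other motifs overlapped in the windows shown. Each line below gives 30 bases, 5′ to 3′ on the strand of the gene, with the motif in capitals (in *Nr1d1* it reads as the reverse complement of CACGTT).
*Per1* E-box, chr11:69098771-69098800, plus strand: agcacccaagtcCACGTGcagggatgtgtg
*Cry1* E-box, chr10:85185097-85185126, minus strand: ggtgccggtggtCACGTGgggtgcatgccg
*Nr1d1* E-box variant, chr11:98775388-98775417, minus strand: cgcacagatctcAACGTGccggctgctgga
*Per3* D-box, upstream copy, chr4:151044852-151044881, minus strand: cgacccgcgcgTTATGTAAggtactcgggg
*Per3* D-box, downstream copy, chr4:151044805-151044834, minus strand: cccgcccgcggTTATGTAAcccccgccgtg
*Arntl* ROR/REV-ERB element, chr7:113207528-113207557, plus strand: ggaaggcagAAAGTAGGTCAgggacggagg
These matches describe the sequence only. No binding was measured in this series.

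The libraries held 114343653 to 124815868 counts. *Mettl14* had 2050 and 2154 counts with shCTR (A and B) and 546 and 568 with shMettl14, a log2 fold change of −2.08 (standard error 0.25, adjusted p = 1.0 from edgeR and 3.0e-07 from DESeq2). The edgeR test without a term for the letter thus did not call even the targeted gene, and a clock gene that it did not call is not shown to be unaffected. Over 18916 genes the log2 levels correlated at 0.985 (letter A) and 0.977 (letter B) between hairpins, and at 0.953 (shCTR) and 0.969 (shMettl14) between letters. All 7 smooth muscle markers checked were expressed, with a summed level of 6797 and 5770 CPM (counts scaled to a common library size) in shCTR A and B and 4442 and 4809 CPM in shMettl14 A and B. All 7 had a log2 fold change below 0 with shMettl14 in the fit without a term for the letter, and 0 were called. The largest in size was *Acta2*, at −0.58 (standard error 0.21, unadjusted p = 0.038 by edgeR), and the lowest *Myocd*, at −0.02 (standard error 1.38). With a term for the letter 6 of the 7 were below 0. In that fit 3 of the 7 were lower at an unadjusted p under 0.05 by edgeR, as were 1049 of all 18916 genes tested, and 0 of the 7 were called. In the fit without a term for the letter, 9230 of all 18916 genes tested were below 0. All 6 endothelial markers were also expressed, although the endothelium had been scraped off. They summed to 1815 and 3894 CPM in shCTR A and B and 1705 and 2390 CPM in shMettl14 A and B. Most of each sum came from *Emcn*, *Cdh5* and *Pecam1*. *Tie1* had 134.5 to 171 CPM, whereas *Kdr* had 5.06 to 9.75 CPM and *Tek* 5.04 to 10.9 CPM. Of 6 leukocyte markers 4 stayed under 1 CPM in every library, as did all 5 adipocyte markers, and the 6 striated muscle markers summed to 11.1 to 29.3 CPM with the highest value in shCTR A. In such bulk samples fewer cells of a type and less RNA per cell cannot be told apart.

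All 10 clock genes were expressed in every library and passed the filter on low counts. Their counts ranged from 536 (*Cry1* in shCTR B) to 8921 (*Clock* in shMettl14 B), and the 95% exact Poisson interval of the lowest, 492 to 583 counts, shows that counting error was small; it covers counting error only. Per kilobase of exon the highest mean level over the 4 libraries belonged to *Nr1d1* (16.6 ± 4.21 CPM per kb, SD, n = 4 libraries of both groups), followed by *Nr1d2* (9.77 ± 1.64), *Per1* (9.45 ± 3.52), *Dbp* (6.89 ± 3.62), *Cry2* (5.86 ± 1.06), *Clock* (4.79 ± 0.731), *Per3* (2.80 ± 0.217), *Arntl* (2.39 ± 0.328), *Per2* (2.37 ± 0.199) and *Cry1* (1.87 ± 0.316). Of the 9 neighbouring pairs in this order only *Clock* and *Per3* had ranges over the 4 libraries that did not overlap. Compared within each library, *Nr1d1* was also above *Nr1d2*, and *Per1* above *Dbp*, in all 4. The other overlapping pairs kept their order in 2 or 3 libraries. Genes further apart could have separate ranges, as *Nr1d1* (10.8 to 20.8) and *Cry2* (4.58 to 6.77) did. The genes differed in how much they varied. *Dbp* and *Per1* had the widest spread, with a highest library 2.80 and 2.33 times the lowest, whereas *Per3* and *Per2* stayed within 1.18 and 1.21 times.

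**Figure D1:**
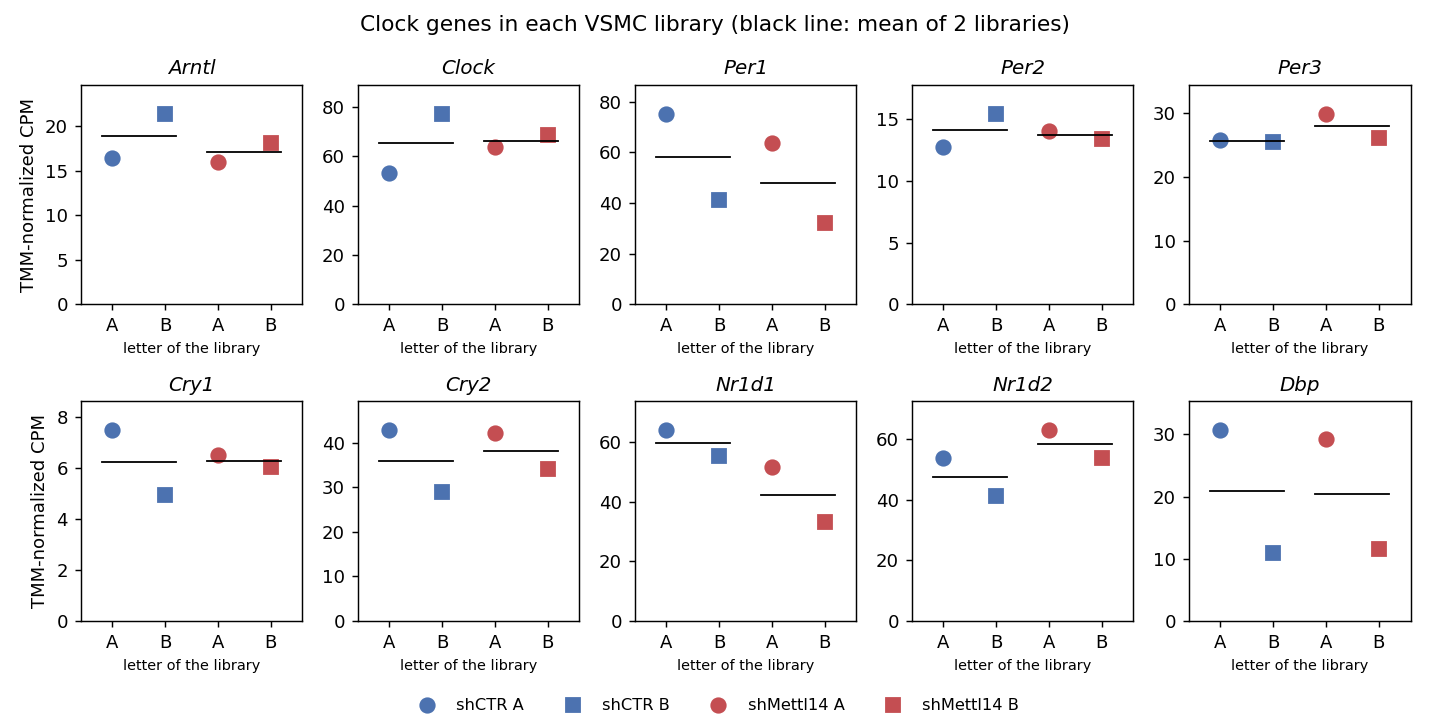
TMM-normalized CPM of the 10 clock genes in each library (circles, letter A; squares, letter B; blue, shCTR; red, shMettl14; black lines, mean of the 2 libraries of a group; each axis starts at 0). *Dbp* sits near 30 CPM in both A libraries and near 11 CPM in both B libraries whatever the hairpin, and *Nr1d1* is the gene with both shMettl14 libraries below both shCTR libraries.

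None of the clock genes passed the test between shMettl14 and shCTR. Their log2 fold changes lay between −0.49 (*Nr1d1*) and 0.29 (*Nr1d2*), 5 were below and 5 above 0, and their median was −0.01, against 0.01 over all genes tested. The median absolute log2 fold change was 0.11 for the clock genes and 0.23 for all genes. In the edgeR quasi-likelihood fit 0 of the 10 had an adjusted p under 0.05, as did 0% of the 18916 genes tested (Benjamini-Hochberg), and 0 had an unadjusted p under 0.05, against 1.67% of all genes. DESeq2's Wald test called 0 of the 10 as well, and 0 at an unadjusted p under 0.05. In 5 genes the sign was the same within both letters (*Per1*, *Arntl* and *Nr1d1* lower, *Per3* and *Nr1d2* higher), where 57.7% of all genes tested had the same sign in both. In 2 genes the groups did not overlap, *Nr1d1* (lower) and *Per3* (higher), and this held for 28.0% of all genes tested. Neither share among the 10 clock genes is far from that of all genes.

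For the activators the difference was below its error. *Arntl*, which encodes BMAL1 (ENSMUSG00000055116, chr7:113207465-113314126 of GRCm38, plus strand), had 16.4 and 21.4 CPM in shCTR A and B and 15.96 and 18.1 CPM in shMettl14 A and B. The shMettl14 values fell on either side of the lower shCTR value, and the log2 fold change was −0.15 (standard error 0.25). *Clock*, which encodes the partner of BMAL1 (ENSMUSG00000029238, chr5:76209868-76304792, minus strand), had 53.2 and 77.2 CPM with shCTR and 63.9 and 68.6 CPM with shMettl14, so that both shMettl14 libraries lay between the shCTR libraries. The log2 fold change of 0.02 had a standard error of 0.25, and there were ratios of opposite sign within A (0.27) and B (−0.17).

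Among the inhibitors *Per1* had the largest difference between means, smaller than its error in the fit without a term for the letter. *Per1* (ENSMUSG00000020893, chr11:69095217-69109960, plus strand), which also responds acutely to hormones and serum, had 75.4 and 41.4 CPM in shCTR A and B and 63.7 and 32.3 CPM in shMettl14 A and B. Within each letter the shMettl14 library was the lower one (log2 ratios −0.24 in A and −0.36 in B), but the letters lay much further apart than the hairpins, and the log2 fold change was −0.28 (standard error 0.45). *Per2* (ENSMUSG00000055866, chr1:91415982-91459324, minus strand) had 12.7 and 15.4 CPM with shCTR and 14.04 and 13.3 CPM with shMettl14, both again inside the shCTR range (log2 fold change −0.04, standard error 0.24). *Per3* (ENSMUSG00000028957, chr4:151003652-151044665, minus strand), the gene with the D-box pair above, had 25.9 and 25.5 CPM with shCTR and 29.98 and 26.2 CPM with shMettl14. Both shMettl14 libraries were higher, by little in B, and the log2 fold change of 0.13 was less than its standard error of 0.20.

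The cryptochromes, which bind and inhibit the CLOCK and BMAL1 complex, had small differences of which the sign depended on the letter. *Cry1* (ENSMUSG00000020038, chr10:85131700-85185064, minus strand) had 7.501 and 4.96 CPM in shCTR A and B and 6.52 and 6.04 CPM in shMettl14 A and B. The log2 ratio was −0.20 within A and 0.28 within B, and the log2 fold change was 0.01 (standard error 0.34). *Cry2* (ENSMUSG00000068742, chr2:92403646-92434043, minus strand) had 42.8 and 28.95 CPM with shCTR and 42.3 and 34.0 CPM with shMettl14, which left the groups overlapping (log2 fold change 0.09, standard error 0.28).

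The REV-ERB genes were the pair that stood furthest from 0, on opposite sides, with *Per1* (−0.28) close to *Nr1d2* in size. *Nr1d1*, which encodes REV-ERBα (ENSMUSG00000020889, chr11:98767932-98775333, minus strand), had 63.9 and 55.1 CPM in shCTR A and B and 51.5 and 33.1 CPM in shMettl14 A and B. Both shMettl14 libraries were below both shCTR libraries, by −0.31 in A and −0.74 in B on the log2 scale. In edgeR this was −0.49 on the log2 scale (standard error 0.28, adjusted p = 1.0 by the quasi-likelihood test), and 22.4% of all genes tested had a difference at least as large. *Nr1d2*, which encodes REV-ERBβ (ENSMUSG00000021775, chr14:18204054-18239127, minus strand), had 53.8 and 41.3 CPM with shCTR and 62.9 and 53.6 CPM with shMettl14. The groups just overlapped, and edgeR gave 0.29 on the log2 scale (standard error 0.23, adjusted p = 1.0). The ratio of *Nr1d1* to *Nr1d2* counts within a library, which needs no normalization, was 1.19 and 1.34 in shCTR A and B and 0.819 and 0.618 in shMettl14 A and B. Both shMettl14 ratios were below both shCTR ratios. On the log2 scale the ratio fell by 0.83, 0.54 within A and 1.11 within B (exact two-sided permutation p = 0.33, the smallest that 2 libraries against 2 can give), and this ratio was chosen after the values were seen. Of the exon bases of *Nr1d1* 8.55% overlap *Thra* on the other strand, and the sources do not say whether the counting used strand. *Thra* went the same way as *Nr1d1* in A (48.3 CPM with shCTR and 41.5 with shMettl14) and the other way in B (34.7 and 45.1).

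*Dbp*, an output gene that CLOCK and BMAL1 activate (ENSMUSG00000059824, chr7:45705088-45710203, plus strand), had 30.7 and 10.98 CPM in shCTR A and B and 29.2 and 11.5 CPM in shMettl14 A and B. The libraries of a letter were nearly equal. Without a term for the letter the log2 fold change was −0.03 (standard error 0.65, the widest of the 10). That error holds the difference between the letters. With a term for the letter the log2 fold change was 0.00048 (standard error 0.16). The hairpins differed by −0.07 within A and by 0.07 within B.

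**Figure D2:**
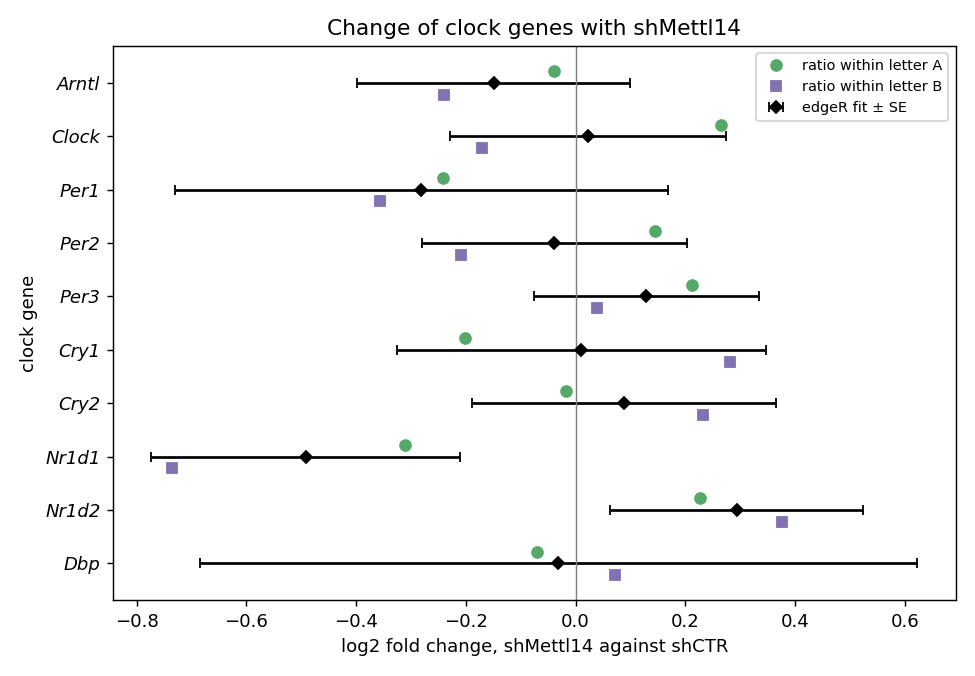
Log2 fold change of each clock gene with shMettl14 against shCTR (black diamonds, edgeR fit with its standard error as bars; green circles, ratio within letter A; purple squares, ratio within letter B). Only the bars of *Nr1d1* (−0.49) and *Nr1d2* (0.29) do not reach 0, and neither gene passed the test. The bars come from the fit without a term for the letter. With that term *Per1* (−0.30, standard error 0.16) was as far from 0 as *Nr1d2* (0.30, standard error 0.16).

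Of the other 24 genes listed for the clock pathway, all tested, 12 were higher and 12 lower with shMettl14, and 0 had an unadjusted p under 0.05 by edgeR (1.67% of all genes did). Their log2 fold changes ran from −0.61 to 0.53, and 0 had a log2 ratio over 0.5 in the same direction within both letters. *Rora*, whose product activates *Arntl* through the element that the REV-ERBs also bind, had 26.7 and 29.5 CPM in shCTR A and B and 39.1 and 32.6 CPM in shMettl14 A and B (log2 fold change 0.35, standard error 0.21). *Bhlhe40*, a repressor that binds E-boxes, had 101 and 95.0 CPM with shCTR and 86.9 and 64.9 CPM with shMettl14 (log2 fold change −0.37, standard error 0.23). Neither gene passed the test. The D-box activators *Tef* (0.25, standard error 0.26) and *Hlf* (0.40, standard error 0.58, at 24 to 41 counts) had log2 fold changes smaller than their errors without a term for the letter. So did the D-box repressor *Nfil3* (−0.16, standard error 0.41) and *Npas2*, a relative of *Clock* (−0.12, standard error 0.56). With that term the log2 fold change of *Tef* was 0.27 (standard error 0.16), and *Tef* was not called.

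The letters separated the clock genes more than the hairpins did, and the same held for all genes by their median difference. In 8 of the 10 genes the difference between the letters was larger than that between the hairpins. The letter difference came from a fit with hairpin and letter as terms, the hairpin difference from the fit without a letter term. In the letter fit 7 were lower and 3 higher in B, where 9686 of all 18916 genes tested were lower. The sign was the same within both hairpins in 9. For the 8 and the 9 genes the share over all genes was not counted. In the edgeR quasi-likelihood fit 2 of the 10 had an adjusted p under 0.05 (*Dbp* and *Per1*, both lower in B), against 15.6% of all genes tested, and 4 had an unadjusted p under 0.05 (with *Cry2* and *Nr1d1*), against 30.1% of all genes. In 7 genes the letters did not overlap, *Per1*, *Cry1*, *Cry2*, *Nr1d2* and *Dbp* being lower in B and *Arntl* and *Clock* higher, where 55.9% of all genes did not overlap. The shares are thus not far from the background of a difference that touched many genes. The median absolute log2 difference between the letters was 0.34 for the clock genes and 0.39 for all genes. Between the hairpins it was 0.11 and 0.23.

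*Dbp* fell from 29.97 ± 1.03 CPM in the A libraries to 11.3 ± 0.401 CPM in the B libraries (SD, n = 2 libraries each, 1 of either hairpin), to 0.376 of the A level. The log2 difference was −1.41 (standard error 0.17, adjusted p = 0.00029 from edgeR), −1.48 within shCTR and −1.34 within shMettl14, and 9.84% of all genes had one at least as large. *Dbp* shares 18.0% of its exon bases with *Sphk2* on the other strand, and *Sphk2* was also lower in B (36.0 and 30.1 CPM in the A libraries with shCTR and shMettl14, 21.7 and 20.97 CPM in the B libraries), by less than *Dbp*. *Per1* fell from 69.5 ± 8.23 to 36.9 ± 6.40 CPM, to 0.528 of the A level, a log2 difference of −0.92 (standard error 0.16, adjusted p = 0.0029 from edgeR). The *Per1* call was lost when shCTR A (adjusted p = 0.19) or shMettl14 A (0.052) was left out, although the difference stayed at −0.79 and −1.04; these fits have no hairpin term.

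The remaining targets of CLOCK and BMAL1 were mostly lower in B and the activators higher, without passing the test. The log2 difference was −0.44 for *Cry2* (standard error 0.16, adjusted p = 0.092 from edgeR), −0.43 for *Nr1d1* (0.17, adjusted p = 0.12), −0.35 for *Cry1* (0.22), −0.31 for *Nr1d2* (0.16) and −0.11 for *Per3* (0.16). The *Nr1d1* difference was −0.21 within shCTR and −0.64 within shMettl14. With a library left out it was −0.80 without shCTR B, −0.54 without shMettl14 A, −0.23 without shCTR A and −0.08 without shMettl14 B. These fits have no hairpin term, so the hairpin difference is mixed in. The log2 difference was 0.28 for *Arntl* (0.17) and 0.32 for *Clock* (0.17), and *Per2*, at 0.10 (0.18), was higher in B with shCTR and lower with shMettl14. Endothelial marker levels also differed between the letters, as given above, and so did the smooth muscle genes *Myh11* (338 and 233 CPM in the A libraries with shCTR and shMettl14, 101 and 75.0 in the B libraries) and *Myocd* (0.546 and 0.918 in A, 7.10 and 6.60 in B). Their part in the difference of the clock genes was not tested.

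**Figure D3:**
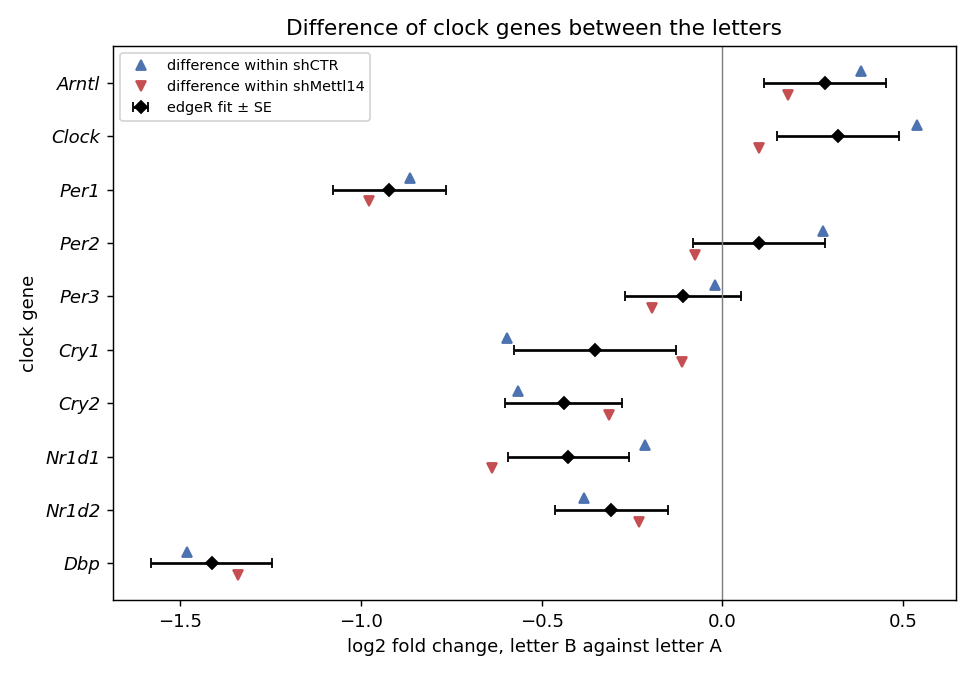
Log2 difference of each clock gene between letter B and letter A (black diamonds, edgeR fit with hairpin as a term and its standard error as bars; blue triangles, difference within shCTR; red triangles, difference within shMettl14). *Dbp* (−1.41) and *Per1* (−0.92) lie far to the left with both hairpins, and *Arntl* and *Clock* lie to the right of 0.

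Of the other 24 clock pathway genes 4 were called between the letters, all lower in B, a share close to the 15.6% of all genes, and *Ciart*, *Noct* and *Arntl2* among them are named here after their values were seen. The log2 difference was −0.87 for *Ciart*, a repressor of the loop (standard error 0.22, adjusted p = 0.023 from edgeR), −0.81 for *Noct*, a rhythmic gene (0.16, adjusted p = 0.0061), −0.79 for *Nfil3* (0.17, adjusted p = 0.011) and −0.75 for *Arntl2*, a paralog of *Arntl* (0.18, adjusted p = 0.018). *Npas2* had 1.32 and 1.82 CPM in the A libraries (shCTR and shMettl14) and 3.39 and 2.50 CPM in the B libraries, higher in B with both hairpins (log2 difference 0.91, standard error 0.32, adjusted p = 0.082). *Tef* was lower in B by 0.40 on the fitted log2 scale without being called, and *Rora*, *Bhlhe40* and *Hlf* had log2 differences of −0.06, −0.25 and −0.02.

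Ratios of counts within a library show the same values free of any scaling. There were 1.87 *Dbp* counts for each *Arntl* count in shCTR A and 1.83 in shMettl14 A, but 0.513 in shCTR B and 0.638 in shMettl14 B. For *Per1* the ratio was 4.597 and 3.99 in the A libraries and 1.93 and 1.79 in the B libraries, and for *Nr1d1* it was 3.90 and 3.23 in A and 2.58 and 1.83 in B. The letters did not overlap for any of these ratios, while the hairpins overlapped in each. *Clock* kept 3.24 to 4.003 counts for each *Arntl* count. It was the only gene whose ratio to *Arntl* separated the hairpins (3.24 and 3.61 with shCTR, 4.003 and 3.79 with shMettl14), by 0.19 on the log2 scale (exact two-sided permutation p = 0.33, the smallest possible). For the other 8 genes the difference between hairpins ran from −0.38 (*Nr1d1*) to 0.44 (*Nr1d2*). Within A and B it was −0.27 and −0.50 for *Nr1d1*, and 0.27 and 0.62 for *Nr1d2*. With 1 library left out, that of *Nr1d1* ran from −0.79 (without shMettl14 A) to 0.03 (without shMettl14 B). That of *Nr1d2* ran from 0.06 (without shCTR B) to 0.82 (without shCTR A). Leaving out 1 library sets 2 letters against 1, so the letter difference of the ratio is mixed into these values. With *Clock* in place of *Arntl* as the reference, the sign turned for *Per2* (−0.08), *Cry1* (−0.01) and *Dbp* (−0.05).

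**Figure D4:**
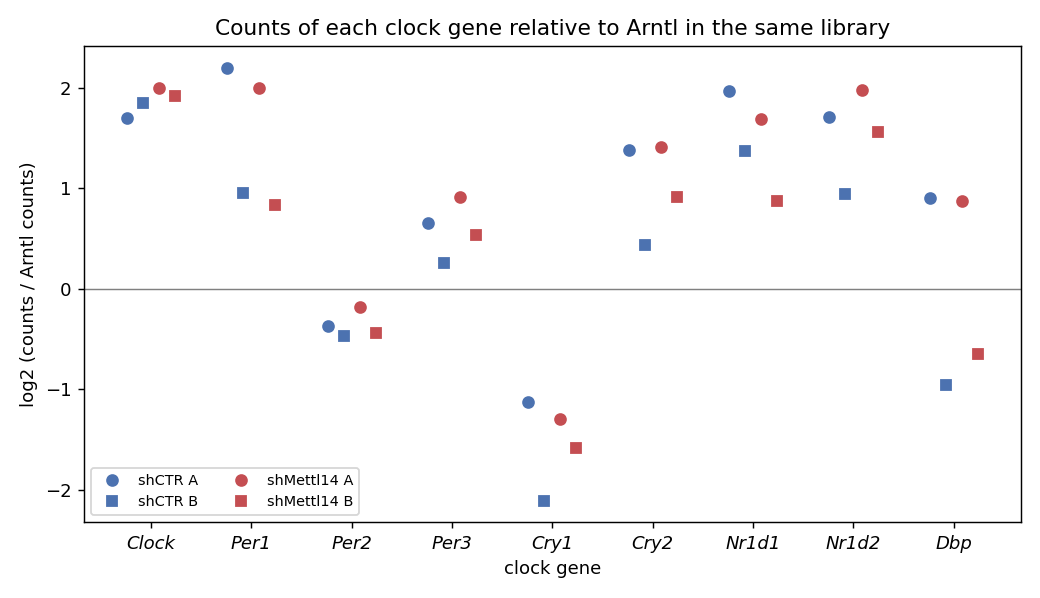
Log2 of the counts of each clock gene over the *Arntl* counts of the same library (circles, letter A; squares, letter B; blue, shCTR; red, shMettl14). The squares of *Dbp* lie below 0 and its circles above, and for *Per1* the squares lie about 1.2 below the circles.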

How the data were processed

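Poly-A–enriched, stranded paired-end libraries were mapped by the authors to mm10 with STAR and counted per gene with featureCounts, per the labels and the study's methods; tool versions, strand setting and treatment of multi-mapped reads are not given in the sources used here. The deposited values are these counts, unnormalized, for 2 libraries per group, and nothing says that the letters A and B mark separate cultures, so that p-values measure the spread between these libraries only. Counts were analyzed with edgeR 4.0.16 in R 4.3.3 (filterByExpr, 18916 genes, TMM, robust quasi-likelihood fit, Benjamini-Hochberg adjusted p under 0.05). The hairpin fit had no block, and the letter fit had hairpin and letter as terms. The standard error was taken as |log2 fold change|/√F. CPM use TMM-scaled library sizes, and log2 ratios within a letter use a prior count of 2. Gene places, exon lengths and overlaps came from GENCODE M21 (GRCm38). DESeq2 1.42.0, RLE factors, upper-quartile scaling, no filter, a replicate block and leaving out each library were the alternatives. Both fits were run on simulated data. The simulated spread between libraries was the same for every gene and lower than the hairpin fit found here. No letter difference was put into the data simulated for the hairpin fit. These runs therefore do not show what the hairpin fit can find in the present libraries. The members and lists were chosen with earlier results of these data known. Named were all members, *Mettl14*, *Npas2*, *Rora*, *Nfil3*, *Bhlhe40*, *Tef*, *Hlf*, *Tsc22d3*, *Fkbp5*, *Sgk1*, *Fos*, *Egr1*, and listed clock pathway genes with an unadjusted p under 0.05 or a same-sign log2 ratio over 0.5 within both letters (0 genes).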

Additional observations from a re-analysis of the deposited data

How the results depend on the processing

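Between the hairpins 0 clock genes were called in any fit run, and 0 other clock pathway genes in the fits on all 4 libraries. The log2 fold changes of *Nr1d1* and *Nr1d2* kept their sign in each. The number of all genes called was 0 in edgeR without a block on all 4 libraries, 0 to 1 with a library left out (1 without shCTR B) and 5 with DESeq2. With a replicate block, which pairs the libraries by letter, it was 9 (1941 at an unadjusted p under 0.05), and *Nr1d1* had an unadjusted p of 0.010 but an adjusted p of 0.35 from edgeR. In that fit the log2 fold change of *Dbp* was 0.00048, and that of *Per1* was −0.30 with a standard error of 0.16 (edgeR adjusted p = 0.56). Of the other 24 clock pathway genes 3 had an unadjusted p under 0.05 there, *Arntl2* (log2 fold change 0.48), *Nono* (−0.39) and *Bhlhe40* (−0.38), as did *Klf15* (1.12) of the glucocorticoid-responsive and *Nr4a1* (−0.55) of the immediate early genes, and 0 of these 5 were called. *Mettl14* had an adjusted p of 0.0039 in that edgeR fit. Deviations of same-letter libraries had a correlation of 0.578 across genes, and with 2 pairs and undescribed letters the samples share only a letter. Leaving out 1 library at a time turned the sign of 7 genes, none of them called, with ranges of −0.85 to 0.22 (*Per1*), −0.17 to 0.10 (*Per2*), −0.26 to 0.34 (*Cry1*), −0.17 to 0.40 (*Cry2*), −0.32 to 0.052 (*Arntl*), −0.22 to 0.31 (*Clock*) and −0.85 to 0.90 (*Dbp*). Such a fit sets 2 letters against 1, so it mixes the letter difference into the hairpin difference. *Nr1d1* ranged from −0.85 to −0.20 and *Nr1d2* from 0.11 to 0.50. Between the letters 2958 genes were called, and 1715 without the hairpin term. With a library left out as well it was 495 (without shCTR A), 845 (without shMettl14 A), 1604 (without shCTR B) and 3456 (without shMettl14 B), so the share of all genes called between the letters depends on the libraries used. Among the hairpin differences of the ratios to *Arntl* under the alternatives, 28 values moved by more than the spread between replicates and 16 did not. The number of clock genes called was 1 to 3 with a library left out, *Dbp* being called each time and *Per2* ranging from −0.0051 to 0.19.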

Other observations

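Genes known to respond to the signals that reset a clock in culture were examined beside the clock genes. Of 5 tested glucocorticoid-responsive genes and 6 serum and immediate early genes, 0 had an unadjusted p under 0.05 between the hairpins by edgeR, against 1.67% of all genes. In the fit with a replicate block 1 gene of each list did, without being called. *Sgk1*, a kinase gene induced by glucocorticoids and serum, had 343 and 211 CPM in shCTR A and B and 245 and 189 CPM in shMettl14 A and B, lower in B (log2 difference −0.54, standard error 0.16, edgeR adjusted p = 0.048). *Tsc22d3* and *Fkbp5*, both targets of the glucocorticoid receptor, differed between the letters by 0.01 (standard error 0.22) and −0.15 (0.19) on the log2 scale. *Fos* and *Egr1*, immediate early genes, differed by 0.33 (0.16) and −0.10 (0.16), without being called. A pair of genes of the latter list were called between the letters in opposite directions, where 15.6% of all genes were called, and are named after their values were seen, *Junb* at −1.62 and *Fosb* at 1.27 on the log2 scale.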
